A study of Caenorhabditis elegans with 2 samples.

Results

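The heat shock, DnaJ and CCT chaperone genes of Caenorhabditis elegans were examined in a map of where the nuclear hormone receptor NHR-42 is found on chromatin. The genes were all protein-coding genes of the Ensembl annotation whose symbol begins with hsp-, dnj- or cct-, which gave 59 of 19985 genes, namely 22 hsp, 29 dnj and 8 cct genes. Chromatin immunoprecipitation followed by sequencing had been carried out on whole larvae of the fourth stage (L4), 50 h old, in 2 biological replicates that form the single group of the series. All animals were of strain OP351. They carried the integrated transgene wgIs351, in which nhr-42 is fused to TY1, EGFP and 3xFLAG tags (clone P000009_D03) beside a functional copy of unc-119, in an unc-119(tm4063) mutant background. Populations were bleached and starved at the first larval stage to synchronise them, and an anti-GFP antibody pulled down the chromatin. The tagged protein came from a transgene in 1 strain, and whole animals mix all tissues, so a peak cannot be placed in a tissue. A possible control experiment that the labels name was not analysed here, and values are given without a background from it.

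Chaperones bind unfolded or partly folded proteins and release them for another attempt at folding. Hsp70 proteins do so in cycles of ATP hydrolysis that are set off by DnaJ (J domain) partners and reset by exchange factors, Hsp90 acts on clients at a late stage of folding, and the CCT complex encloses actin, tubulin and other clients in a ring of related subunits. Small heat shock proteins hold clients without ATP, and many of their genes are silent until heat or another stress calls on heat shock factor, whose binding sites are arrays of alternating GAA and TTC units.

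The files held peaks, not reads, so read depth is unknown. For the pair of replicates there was a conservative list of 1627 peaks and another series list of 1789 peaks, and each replicate had a list of its own, with 875 peaks in replicate 1 and 702 in replicate 2. All were kept by the irreproducible discovery rate (IDR), a measure of how well a peak's rank repeats between replicates or parts of one, at a score of at least 830. The score is capped at 1000. A longer ranked list behind each also holds the peaks that did not pass, and for the conservative list it has 105959 peaks. The strength of a peak is given as the authors' signal value, whose unit is not stated and which is read here only within a list. A peak was counted for a gene when its summit lay no more than 1000 bp upstream or 200 bp downstream of an annotated 5′ end of the gene, called the promoter window below, so neighbours can share a peak and members of a pair are not independent.

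A few sequences show what lay under the summits. Each is printed 5′ to 3′ on the strand of the chaperone gene (build ce11), in lower case, with capitals for matches to GAANNTTC or TTCNNGAA, the pair of 8-base motifs made of adjacent inverted heat shock element units. The first 6 are centred on conservative summits. They show the strongest peak, which held no match (hsp-3, chrX:6092137-6092237, minus strand), the strongest peak of a CCT gene (cct-8, chrIV:1094252-1094452, minus strand), and the peak between the genes of the mitochondrial chaperonin pair (hsp-60, chrIII:1619050-1619250, plus strand). Then come the strongest peak of a DnaJ gene (dnj-13, chrII:11545397-11545597, plus strand), the peak inside hsp-90 (chrV:14685696-14685896, plus strand), and that of hsp-110 (chrIII:8447017-8447217, minus strand), where both motifs share a unit in the longer run of capitals. The last is the whole stretch between the starts of the heat-inducible pair hsp-16.2 and hsp-16.41 (chrV:1804958-1805177, plus strand), which holds such a run and a further match but no peak past the threshold.
hsp-3: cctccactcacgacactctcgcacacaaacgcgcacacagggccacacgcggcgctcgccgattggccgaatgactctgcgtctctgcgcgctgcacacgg
cct-8: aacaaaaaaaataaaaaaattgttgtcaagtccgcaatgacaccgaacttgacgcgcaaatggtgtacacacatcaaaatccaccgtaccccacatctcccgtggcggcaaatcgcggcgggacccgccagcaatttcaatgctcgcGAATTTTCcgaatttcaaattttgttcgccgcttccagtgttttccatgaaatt
hsp-60: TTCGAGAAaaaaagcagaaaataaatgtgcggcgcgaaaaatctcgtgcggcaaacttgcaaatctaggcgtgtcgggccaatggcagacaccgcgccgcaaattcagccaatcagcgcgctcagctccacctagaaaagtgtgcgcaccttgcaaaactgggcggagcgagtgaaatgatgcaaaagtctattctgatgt
dnj-13: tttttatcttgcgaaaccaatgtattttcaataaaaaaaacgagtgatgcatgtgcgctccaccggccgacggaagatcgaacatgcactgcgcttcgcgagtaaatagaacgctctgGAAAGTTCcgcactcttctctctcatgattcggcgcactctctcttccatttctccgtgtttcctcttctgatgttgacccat
hsp-90: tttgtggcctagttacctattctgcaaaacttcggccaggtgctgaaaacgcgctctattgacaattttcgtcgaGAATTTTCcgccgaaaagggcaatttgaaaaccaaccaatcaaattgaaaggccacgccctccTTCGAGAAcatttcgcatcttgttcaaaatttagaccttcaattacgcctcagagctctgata
hsp-110: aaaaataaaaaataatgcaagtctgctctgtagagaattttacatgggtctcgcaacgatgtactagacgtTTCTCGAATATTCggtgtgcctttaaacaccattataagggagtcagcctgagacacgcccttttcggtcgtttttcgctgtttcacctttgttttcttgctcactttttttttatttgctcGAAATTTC
hsp-16.2 to hsp-16.41: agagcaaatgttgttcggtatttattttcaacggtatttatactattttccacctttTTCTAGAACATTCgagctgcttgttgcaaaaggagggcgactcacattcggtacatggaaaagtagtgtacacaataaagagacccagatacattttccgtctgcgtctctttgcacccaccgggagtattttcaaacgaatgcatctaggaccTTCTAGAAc

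Chaperone promoters held a thresholded peak more often than the promoters of genes at large, in each of the 4 thresholded lists. In the conservative list 14 of 59 members had a summit in the promoter window (23.7%), against 884 genes or 4.42% of all protein-coding genes. The other series list gave 15 members (25.4%, against 4.86% of all genes). Replicate 1 alone gave 13 members (22%, against 3.1%) and replicate 2 alone gave 9 (15.3%, against 2.11%). The same 9 members had a thresholded summit in each replicate separately, 15.3% of the members against 1.68% of all genes. A summit in at least 1 of the 4 thresholded lists was found at 16 members (27.1%, against 5.52% of all genes). The ranked list, which also holds weak peaks, reached 46 of 59 members (78%) and 74% of all genes, so the share of members with any peak was near the background. With 1 group there was no contrast between conditions to test, and these shares are a description.

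**Figure D1:**
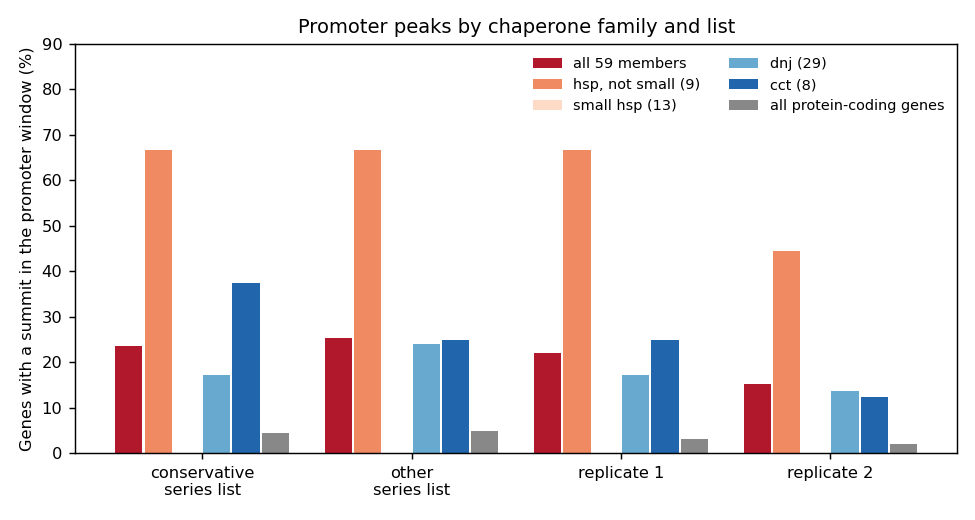
Share of genes with a summit in the promoter window (%) for 5 sets of chaperone genes and for all protein-coding genes (grey), in the 4 thresholded peak lists. The hsp genes other than small ones reach 66.7% in the conservative list, the 13 small heat shock genes have no bar because none had a summit, and all genes stay at or below 4.86%.

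The families and compartments did not share evenly. Of the 22 hsp genes 6 had a conservative summit (27.3%), and all 6 belonged to the 9 genes that do not encode small heat shock proteins (66.7%). Of the 13 small heat shock genes 0 had a summit in any thresholded list, against 5.52% of all genes. A group of this size can have 0 at that share. The 8 cct genes had 3 (37.5%) and the 29 dnj genes 5 (17.2%). By the place where the protein works, 9 of 28 cytosolic (32.1%), 1 of 6 endoplasmic reticulum (16.7%) and 2 of 5 mitochondrial members (40%) had one, as did 2 of the 20 dnj genes that were not placed (10%). These groups are small, and 1 gene more or less moves the mitochondrial share by a large step.

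The peaks at chaperone promoters were also stronger than other promoter peaks. The 14 member peaks had a median signal of 169.4 (range 86.17 to 304.3), against 103.6 for the 728 conservative promoter peaks without a member. Above the median of the whole conservative list, 96.68, lay 13 of the 14 member peaks (92.9%), against 422 of the 728 others (58%). Both replicates' own lists held 9 of the 14 (64.3%), against 236 of the 728 (32.4%). The sequence within 50 bp of the summits was 53.5% G and C in the median for member peaks and 48.5% for the others, and the part of base composition in the difference was not tested. The median distance from summit to 5′ end was 295 bp for member peaks and 273 bp for the others.

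Of the 4 cytosolic hsp genes that do not encode small heat shock proteins, 3 had a conservative peak. Hsp70 genes with other symbols are described under the other observations. At hsp-90 (WBGene00000915), which encodes the Hsp90 chaperone of the cytosol, replicate 1 gave a signal of 119.6, replicate 2 gave 83.89 and the conservative list 202.4. Its summit lay in an intron, 364 bp upstream of an inner 5′ end and 878 bp downstream of the outermost one. At hsp-1 (WBGene00002005), the gene of the constitutive cytosolic Hsp70, the signals were 106.8 and 64.98, and 183.9 in the conservative list, 436 bp upstream of the start in intergenic sequence with a G and C content of only 30.7%. Both peaks passed the threshold in both replicates. At hsp-110 (WBGene00016250), whose protein helps Hsp70 to exchange its nucleotide, the signals were 79.73 and 39.91 (conservative 118.5), and replicate 2 alone did not pass (score 383). The remaining cytosolic Hsp70 gene of the list, the heat-inducible hsp-70, had a ranked peak only (signal 27.71, score 173), below the median of 33.61 over all genes with a ranked summit.

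The endoplasmic reticulum paralogs hsp-3 and hsp-4 stood apart from each other. Both encode BiP, the Hsp70 of this compartment, and hsp-4 is the one known as a target of the unfolded protein response. The hsp-3 (WBGene00002007) peak was the strongest of all member peaks in the conservative list, at 304.3 and just above cct-8 (304.2), and in replicate 1 (175.9). In replicate 2 its signal was 123.7, below cct-8 (168.6) and hsp-60 (141.6). The hsp-3 summit lay 63 bp upstream of the start, in single-copy intergenic sequence that was 66.3% G and C, and no other gene shared it. At hsp-4 the strongest ranked signal was 52.13 (score 298), above the median of all genes with a ranked summit (33.61) and below the threshold. Of the other endoplasmic reticulum members, dnj-29 reached 62.37 (score 556), dnj-27, a J protein with thioredoxin domains, 46.34, and dnj-20 39.84, and dnj-7 had no summit in the conservative ranked list.

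Mitochondrial chaperone genes had a pair of peaks, both shared with a neighbour. At hsp-60 (WBGene00002025), the gene of the mitochondrial chaperonin, the signals were 152.2 and 141.6 in replicates 1 and 2 and 292.4 in the conservative list, with the summit 592 bp upstream. The same summit lay 221 bp upstream of Y22D7AL.10, which runs the other way. Y22D7AL.10 is annotated as the mitochondrial heat shock protein of 10 kDa, the kind that forms the lid of the chaperonin. At hsp-6 (WBGene00002010), the gene of mitochondrial Hsp70, the signals were 55.9 and 44.67 (conservative 106.4), and replicate 2 alone did not pass (score 546). The hsp-6 summit, 405 bp upstream, also lay 195 bp upstream of C37H5.5, annotated as a nucleolar complex protein. The other mitochondrial members did not pass. The strongest was dnj-10 (48.36, score 340), followed by hsp-75, a mitochondrial Hsp90 (29.02), and dnj-21, a subunit of the import motor (28.51).

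Of the DnaJ genes, 3 of the 5 with a conservative peak encode the cytosolic J proteins that serve Hsp70 in general folding. At dnj-13 (WBGene00001031), a J protein that works with Hsp110 and Hsp70 in disaggregation, the signals were 166.6 and 122.9 in replicates 1 and 2, and 285.3 in the conservative list. At dnj-19 (WBGene00001037) they were 107.4 and 85.72 (conservative 199), and at dnj-12 (WBGene00001030) they were 46.29 and 51.25 (conservative 100.8). The dnj-12 peak passed in neither replicate alone (scores 766 and 631) although it had the full score of 1000 in the conservative list. The dnj-19 summit lay only 26 bp upstream of nhr-47, itself a nuclear hormone receptor gene, and 370 bp upstream of dnj-19. The dnj-13 summit, 204 bp upstream, also lay in the window of the F-box gene F54D5.9, inside an intron of dhgd-1 and in an exon of the non-coding F54D5.22.

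The other DnaJ peaks were at dnj-14 and dnj-9. At dnj-14 (WBGene00001032), the homolog of cysteine string protein, a chaperone of synaptic vesicles, replicate 1 gave 71.52 and replicate 2 gave 81.89 (conservative 154.9), and the peak was shared with the neuroligin-like gene glit-1. At dnj-9 (WBGene00001027) the signals were 77.47 and 55.81 (conservative 144.6), with no second gene in reach. Both passed in both replicates. At 2 further genes the lists disagreed. A peak 150 bp upstream of dnj-28 had a signal of 99.88 in replicate 1 and no ranked counterpart in replicate 2, and it stood in the other series list (149.3) but not in the conservative ranked list. Of the 24-base words in that promoter, from 250 bp upstream to 50 bp downstream of the start, 31.3% occur more than once in the genome. Around the dnj-28 summit itself the median was 1 copy. At dnj-24 the signals were 35.53 and 34.53, and the same peak scored 866 in the other series list and 775 in the conservative ranked one, on either side of the threshold.

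The CCT genes split within the complex, each ring of which holds all 8 subunits. At cct-8 (WBGene00021934) the signals were 148.2 in replicate 1 and 168.6 in replicate 2, and 304.2 in the conservative list, close to hsp-3. At cct-1 (WBGene00000377) they were 83.26 and 50.95 (conservative 132.2), and replicate 2 alone did not pass (score 576). At cct-7 (WBGene00020391) they were 41.87 and 38.32 (conservative 86.17, score 938), it passed in neither replicate alone, and it was missing from the other series list. The remaining 5 subunit genes lay below the threshold in all lists. Their ranked signals were 42.61 at cct-6, 32.63 at cct-3, 26.66 at cct-4 and 25.81 at cct-5, around the median of 33.61 over all genes, and cct-2 had no summit in the conservative ranked list. Among the 8 subunit genes cct-8 alone passed in each replicate.

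**Figure D2:**
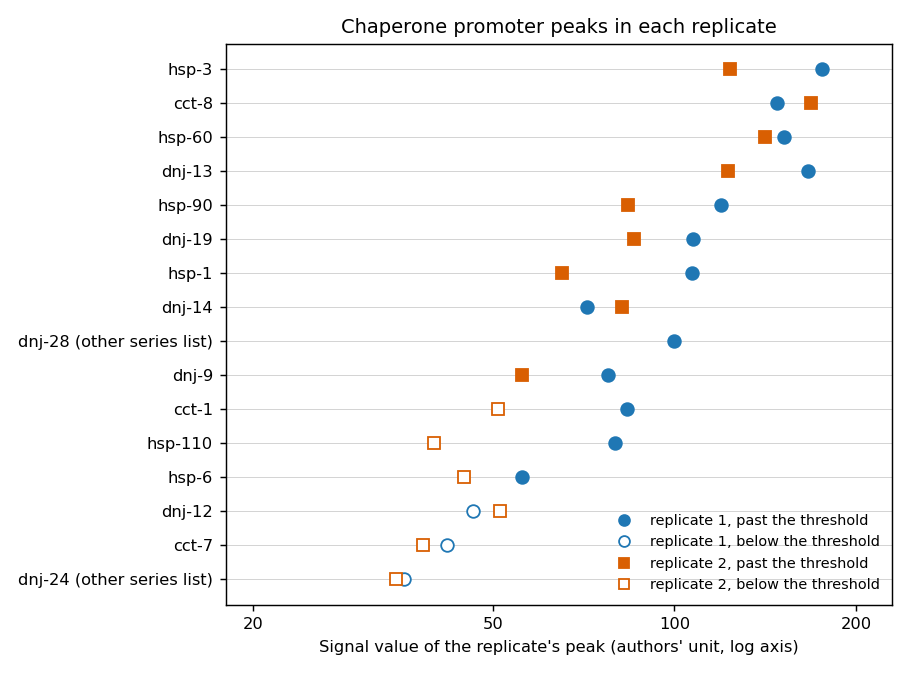
Signal value of the replicate's own peak (authors' unit, log axis) in replicate 1 (circles) and replicate 2 (squares) at the 16 chaperone genes with a summit in any thresholded series or replicate list, filled where it passed in that replicate. From hsp-3 at 175.9 and 123.7 the values fall, though not in strict order, to dnj-24 at 35.53 and 34.53. In replicate 2 cct-8 was higher than hsp-3, at 168.6. The open symbols gather at the lower end.

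The replicates' own thresholds followed the strength of the peak. The 9 members that passed in both replicates were hsp-3, cct-8, hsp-60, dnj-13, hsp-90, dnj-19, hsp-1, dnj-14 and dnj-9, which are the 9 strongest in the conservative list.

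The remaining members had weaker peaks or none. Over all 46 members with a ranked summit the median signal was 44.71 (range 10.85 to 304.3), against 33.61 over the 14797 genes with one. Above the 90th percentile of those genes, 64.17, lay 15 members, the 14 named above and dnj-24. Just below it came dnj-5 (63.1), dnj-29 and hsp-43 (58.37), a small heat shock gene. At dnj-11, annotated as the homolog of a ribosome-associated J protein, a peak of 53 in replicate 1 had no counterpart in replicate 2, and its conservative ranked signal was 55.59 with a score of only 89. The weakest with any value were dnj-4 (10.85) and hsp-12.1 (10.91). The ranked lists held no summit at all for 7 members, 6 of them small heat shock genes.

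**Figure D3:**
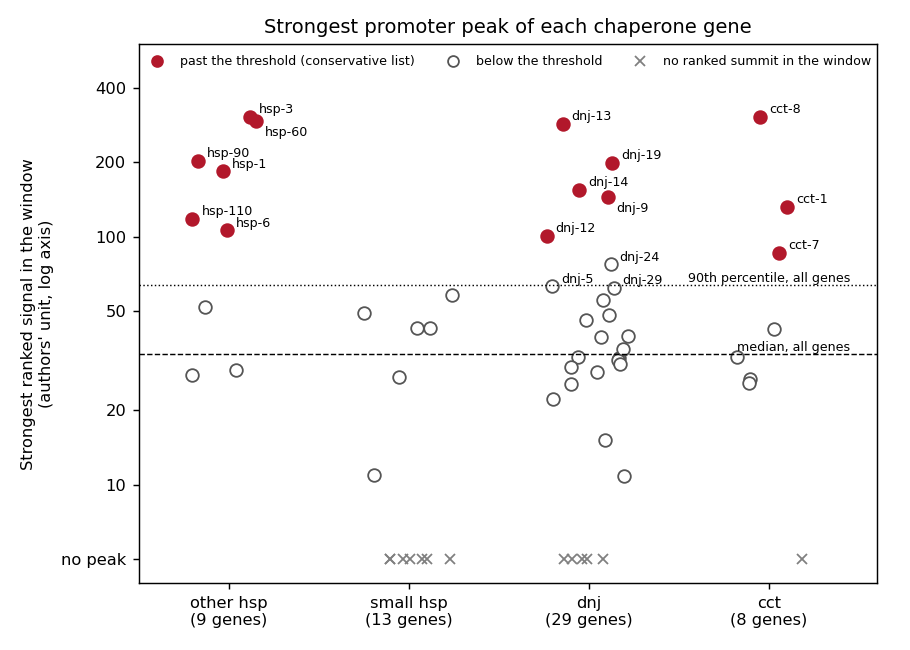
Strongest signal in the promoter window in the conservative ranked list (authors' unit, log axis) for each chaperone gene, by family, with filled points for peaks in the conservative list and crosses for genes without a ranked summit. The 14 filled points lie between 86.17 and 304.3, above the 90th percentile of all genes (64.17), and most others lie near the median of all genes (33.61).

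Of the 13 small heat shock genes 0 had a summit in any thresholded list, where 5.52% of all genes had one. At that share a group of 13 genes can have 0, so the count alone does not set them apart. The strongest ranked peaks were at hsp-43 and hsp-25 (49.2, score 449), and the divergent pair hsp-16.2 and hsp-16.41 shared a summit with a signal of 43.09 (score 226). The hsp-16 genes are the best known heat-induced genes of the worm, and the labels name no heat treatment. The other 4 hsp-16 genes, hsp-16.1, hsp-16.11, hsp-16.48 and hsp-16.49, had no ranked summit in any list. Their promoters are copies of each other, with all 24-base words (100%) present at least 2 times in the genome, and how the authors treated reads that match more than 1 place is not given in the sources used here, so a lack of peaks there cannot be read as a lack of signal. At hsp-16.2 and hsp-16.41 only 7.19% of the words were repeated, and hsp-12.6 and hsp-17, with 0% repeated, also had no ranked summit. Of all conservative summits outside the members' windows, the nearest to a member's start was that of hsp-12.3, 892 bp downstream and past the end of the gene (signal 93.26). Upstream of a member's start, the farthest summit inside the window was that of hsp-60, 592 bp away, and the nearest outside it was 2476 bp from hsp-25 (46.76).

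Most of the member peaks lay between a start of the chaperone gene and a start on the opposite strand. At hsp-90 the start is an inner one, and the summit lies inside the gene. Of the 14 conservative summits 11 (78.6%) also fell in the promoter window of another protein-coding gene. In all 11 that gene lay on the opposite strand, with the summit between both starts. Of the 728 other promoter peaks 184 (25.3%) were shared, on either strand. A shared peak can be reached through each of its genes, so this share per peak is not a like background for a gene list. The partners ranged over functions, with Y55F3AR.2, a thioredoxin domain gene, at cct-8, C47E8.4, a FAM50 homolog, at hsp-90, rpn-3, a proteasome subunit, at hsp-110, mig-5, a dishevelled homolog, at cct-1, mtx-1, a metaxin homolog of the mitochondrial outer membrane, at dnj-12, and T10B5.4 at cct-7. Nearer to the partner than to the chaperone gene were the summits at cct-8 (189 bp from Y55F3AR.2 and 432 bp from cct-8), hsp-60, hsp-90, dnj-19, dnj-14, cct-1, hsp-6 and cct-7, and nearer to the chaperone gene those at dnj-13, hsp-110 and dnj-12. Which gene of a pair such a peak belongs to cannot be told apart. Only hsp-3, hsp-1 and dnj-9 had a peak to themselves.

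The summits whose sequence is not printed above lay, on build ce11, at 17278523 of IV (hsp-1), 5505227 of V (dnj-19), 4827165 of V (hsp-6), 1871960 of V (cct-7), 4712052 of X (dnj-14), 4851807 of II (dnj-9), 8185196 of II (cct-1) and 14756853 of I (dnj-12). Of all 14, 9 were intergenic, those of hsp-3, cct-8, hsp-60, hsp-1, dnj-9, cct-1, hsp-110, dnj-12 and cct-7, and that of hsp-90 was intronic. The summits of dnj-13, dnj-19, dnj-14 and hsp-6 lay in exons of annotated non-coding RNA genes. All 14 had single-copy sequence in the median around the summit, and no tRNA gene lay nearer than 3736 bp.

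The arrangement of the genes moved with the presence of a peak, among members and among all genes. A start on the opposite strand within 1000 bp upstream was found at 11 of the 14 members with a conservative summit (78.6%), against 36.2% of all 884 genes with one. It was found at 18 of the 45 members without a conservative summit (40%), and at 18.8% of all genes. Of the 29 members so arranged 11 had a conservative summit (37.9%), against 8.54% of all genes so arranged. Of the 30 members with no such neighbour 3 had one (10%), against 3.47% of all such genes. The second of these member shares rests on 3 genes. A divergent gene has a window that a partner's peak can fill, and the part of the arrangement in the members' share was not tested. When each conservative peak was given only to the nearest 5′ end, at any distance, 7 members had a peak, 6 of them among the 14. This was 11.9% against 6.67% of all genes. That rule also assigns peaks outside the promoter windows, so its shares are not those of the windows with sharing removed.

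**Figure D4:**
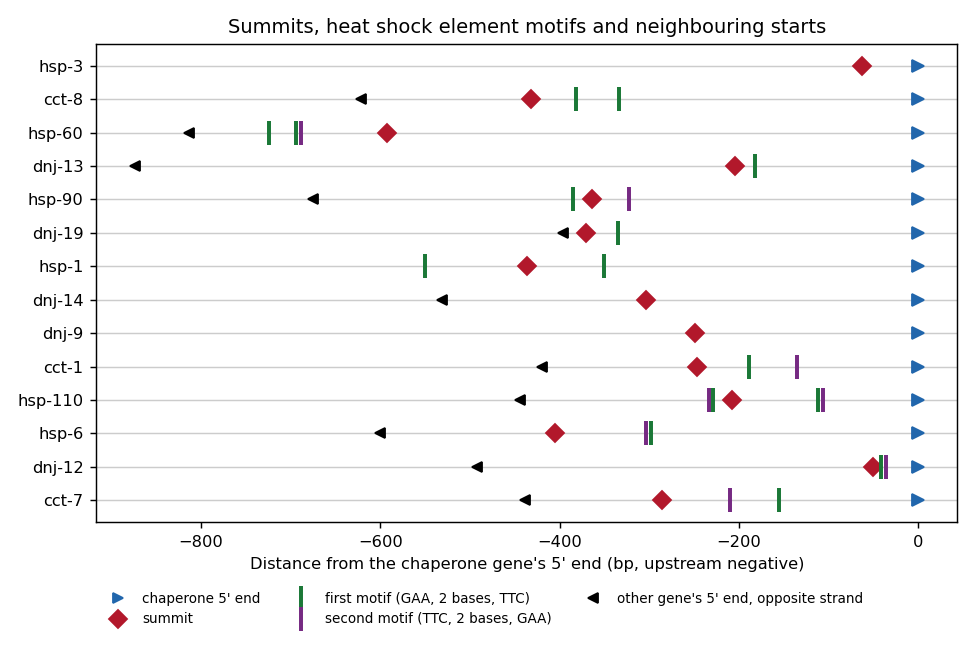
Summits (diamonds), starts of the chaperone genes (right-pointing triangles at 0), starts of the opposite-strand partner genes (left-pointing triangles) and matches to the 2 heat shock element motifs within 150 bp of the summit (bars), in bp from the chaperone gene's 5′ end, for the 14 conservative peaks from strongest to weakest. At all 11 shared peaks the diamond lies between both triangles, and 11 of the 14 rows hold a motif match.

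Heat shock element motifs lay within 150 bp of most member summits. Within 150 bp of the summit GAANNTTC, searched on both strands and equal to its own reverse complement, was found at 11 of 14 member peaks (78.6%), against 16.1% of the 728 other conservative promoter peaks. TTCNNGAA, likewise palindromic, was found at 7 (50%), against 14.3%. Either motif was present at 11 (78.6%), against 25.8%, and the peaks without either were those of hsp-3, dnj-14 and dnj-9. The nearest match was centred 9.5 to 101.5 bp from the summit, with a median of 50.5 bp. In narrower windows the shares were 50% against 11% within 75 bp and 35.7% against 6.73% within 50 bp. Of the 11 peaks with a match, 5 had the centre of the nearest one within 50 bp of the summit and the other 6 had it farther away. Windows centred 500 bp to either side of the member summits held a match within 150 bp in 9 of 28 cases (32.1%), and within 50 bp in 5 (17.9%). Windows moved in the same way from the 728 other summits held one in 35.6% within 150 bp and 12.3% within 50 bp. Those shares are above the ones at the other summits themselves, so the contrast with the other summits is larger than that with nearby sequence.

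The strictest form of the motif, arrays in which both motifs overlap by 1 unit so that 3 units alternate, lay within 150 bp of 4 of the 14 member summits (28.6%), those of hsp-60, hsp-110, hsp-6 and dnj-12, against 18 of the 728 others (2.47%). These 4 differed in strength, with hsp-60 at 292.4 and the other 3 at 118.5, 106.4 and 100.8, in the lower part of the member peaks. Within 75 bp of the summit an array lay at 2 of the 14 (14.3%), against 1.1% of the 728 others. Matches were also found at members without a peak. In the promoter from 250 bp upstream to 50 bp downstream of the outermost start, GAANNTTC was found at 8 of the 14 members with a conservative peak (57.1%), at 17 of the 45 without (37.8%), and at 18.6% of all promoters of that length. All 6 hsp-16 promoters held both motifs, and none had a thresholded peak. Those of hsp-16.1, hsp-16.11, hsp-16.48 and hsp-16.49 are repeated sequence, where a lack of peaks cannot be read as a lack of signal. Those of hsp-16.2 and hsp-16.41 are a single shared stretch. Among members without a conservative peak, the strongest ranked summit had either motif within 150 bp in 12 of 31 cases (38.7%), against 33.4% of the 27561 ranked promoter peaks below the threshold.

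**Figure D5:**
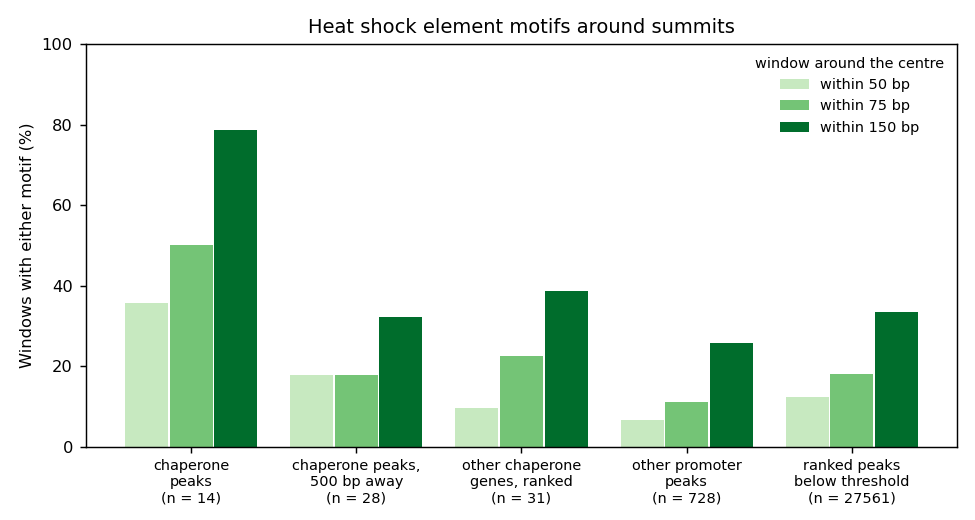
Share of windows with at least 1 match to either heat shock element motif (%), within 50, 75 and 150 bp of the centre, for conservative chaperone peaks, the same peaks moved by 500 bp, the strongest ranked peaks of other chaperone genes, other conservative promoter peaks and ranked promoter peaks below the threshold. Chaperone peaks are the highest at each width, at 35.7%, 50% and 78.6%.

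A nuclear receptor half-site was about as frequent at member summits as at all conservative promoter peaks, and less frequent in the promoters next to the members' starts. Whether NHR-42 binds it was not tested. AGGTCA, searched on both strands, lay within 150 bp of 1 of the 14 member summits (7.14%), against 6.07% of all conservative promoter peaks, and in 1 of the 59 member promoters (1.69%), against 8.29% of all promoters. CACGTG, an E-box core, was at 0 of the 14 summits, against 7.95% of all conservative promoter peaks. A match is a stretch of letters and not a bound site, and a missing match says only that these letters were not in the window.

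Genes that work with the chaperones were described from a list of 42, of which 41 were matched and 15 had a conservative summit (36.6%, against 4.42% of all genes). The list was chosen with earlier results of these data known, so this share is a description of the chosen genes only. Folding enzymes of the endoplasmic reticulum had 5 of 7, with crt-1, the calreticulin gene, at 162 (97.18 and 64.24 in replicates 1 and 2), pdi-3 at 156.6, pdi-6 at 111.1, enpl-1, the Hsp90 of this compartment, at 100.5, and pdi-2 at 71.27. Cochaperones had 4 of 12, namely bag-1, an exchange factor of Hsp70, at 231.6 (151.8 and 70.24), ubql-1 at 156.6, unc-23 at 130.1 and sti-1, which joins Hsp70 to Hsp90, at 113.6. The pdi-3 and ubql-1 peaks are the same peak. Prefoldin, which hands clients to CCT, had 2 of 6, pfd-6 (97.4) and pfd-1 (71.22). Mitochondrial proteases had 1 of 4, clpp-1 (99.01).

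The regulators of the stress responses had 3 of 12. These were atf-6 (148.3) and xbp-1 (106.6) of the unfolded protein response of the endoplasmic reticulum, and ubl-5 (92.03) of the mitochondrial one. The gene of heat shock factor itself, hsf-1, had a ranked signal of 34.69 (score 182). The gene atfs-1, the main regulator of the mitochondrial response, passed in replicate 1 alone (56.01). Of these 41 genes 10 passed in replicate 1, where 3.1% of all genes did, and 5 in replicate 2, where 2.11% did.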

How the data were processed

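Peaks of an nhr-42 EGFP fusion, precipitated with an antibody against GFP, were read from 8 deposited lists on build ce11. The deposited score is a scaled IDR, capped at 1000, and all thresholded lists begin at 830, an IDR of 0.01. The ranked lists also carry the global IDR as −log10 in a score column, per the file headers and values. The signal value is the authors' own and has no stated unit. Replicate lists came from 1 replicate each and the series lists from both, per the file headers. For the peak caller and the aligner, names and settings were not given in the sources. The lists hold no read counts, so no depth and no interval can be given, and a control experiment named in the labels was not analysed here.

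Genes and 5′ ends came from Ensembl release 115. All peak and gene coordinates on 6 chromosomes fit the RefSeq assembly WBcel235, which is the sequence of ce11 and gave the printed sequences and gene products. Ensembl gives a shared symbol to hsp-16.1 and hsp-16.11 and to hsp-16.48 and hsp-16.49, which RefSeq symbols separated. A peak was assigned by its summit, and the replicate signal is that of the strongest ranked replicate peak that overlaps it. Copies were counted as 24-base words in the genome. The members, compartments and lists were chosen with earlier results of these data known. Named were all members with a thresholded summit, all cct genes, the strongest member below the threshold in each family and compartment, the hsp-3 with hsp-4 and hsp-16 paralogs, members at the window's edge and partner genes. Other members were named after their values were seen. The arrangement of divergent genes, either motif combined, narrower and shifted motif windows, 3-unit arrays and heat shock genes with other symbols were added after the data were seen. No test was made, since the series has 1 group. The peak assignment was tested on simulated peaks. Alternatives covered the other list, each replicate alone, other windows and assignment rules, and stronger peaks. Python 3.11.15 was used with numpy 2.4.6, pandas 2.3.3 and matplotlib 3.10.9.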

Additional observations from a re-analysis of the deposited data

How the results depend on the processing

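The share of members with a peak stayed above that of all genes under each alternative run. With each replicate left out in turn, the list of the other alone gave 9 to 13 members, 421 to 619 of all genes, and a median member signal of 85.72 to 106.8 on that list's own scale. Giving each peak to the nearest 5′ end, at any distance, gave 7 members among 1333 genes, with a median signal of 131.6. It lost cct-1, cct-7, cct-8, dnj-14, dnj-19, hsp-6, hsp-60 and hsp-90 and added hsp-25. The stronger part of the list gave 573 genes and 13 members. The other series list gave 15, a window of 500 bp upstream and 100 bp downstream 13 (without hsp-60), and the outermost 5′ end alone 13 (without hsp-90). AGGTCA was in 0 promoters of the 14 members with a peak and at 1 summit within 150 bp. The share of member peaks with either heat shock element motif, 78.57%, was 50.0% within 75 bp, 35.71% within 50 bp and 28.57% for 3-unit arrays. It was 32.14% in windows 500 bp away and 38.71% at ranked summits of members without a conservative peak. No paired analysis was possible because the series has 1 group. Unknown depth, the control not analysed here, shared promoters and repeated hsp-16 sequence limit these values.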

Other observations

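In the conservative list the strongest heat shock gene peak lay outside the symbols used above. The divergent genes F44E5.4 and F44E5.5, both annotated by RefSeq as heat shock protein 70, shared a conservative summit on II with a signal of 391.2, 163 bp upstream of F44E5.4 and 188 bp upstream of F44E5.5. Replicate 1 gave 269.5 and replicate 2 gave 122.0, and the sequence around the summit occurred in 1 copy in the median. Both values were above those of the Hsp70 gene hsp-1 (106.8 and 64.98). In replicate 2 the peaks of cct-8 (168.6), hsp-60 (141.6), hsp-3 (123.7) and dnj-13 (122.9) were stronger. Of 15 genes outside the symbols with a heat shock or J domain product, 4 had a conservative summit (4.42% of all genes had one), on 3 peaks, since F44E5.4 and F44E5.5 share theirs. The remaining genes were Y22D7AL.10, which has the hsp-60 peak described above, and F08H9.3, a small heat shock gene. The F08H9.3 peak had a signal of 80.6 with its summit at the start, and it passed in neither replicate alone. Its neighbour F08H9.4 had no conservative summit.

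Arrays of 3 alternating heat shock element units lay within 150 bp of 31 conservative summits. Of these, 4 belonged to chaperone genes, 1 to bag-1 and 17 to other promoters, and 9 lay in no promoter window. The peak of F44E5.4 and F44E5.5 was the strongest of the 31, hsp-60 came next, and the peak shared by ddp-1 and ttc-7 (212.4) followed among promoters after bag-1 (231.6). Further promoters with an array included those of R107.5 (175.4), rps-26 with tmem-107 (148.2), nurf-1 (128.4) and mrpl-41 (103.5). Among the weaker ones were those of pbs-5 (87.99) and uba-1 (86.77), a proteasome subunit gene and the gene of the ubiquitin-activating enzyme. These peaks were chosen after the data were seen.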
